A study of Mus musculus with 158 samples.

Results

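The comparison was between 8 astrocytes kept in culture for 15 days and 70 astrocytes kept for 12 days, out of 86 cultured astrocytes and 158 libraries in the series. Members were chosen by their labels alone: the cell type is given as astrocyte, the source region as cortex and the source type as primary culture, and the growth protocol states the culture days. Both ages came from mice of the strain written C57/BL6/N, received no treatment, were cultured under standard primary conditions and share the basecaller bcl2fastq2 2.17. Each library holds the polyA RNA of 1 cell, drawn into a patch pipette and amplified in 3 rounds of antisense RNA (aRNA) amplification before sequencing. No label names an animal, a litter or a culture, nor the age of the mice, so that the cells of an age counted as 1 sample and no test was possible. A difference between the ages therefore cannot be told apart from a difference between the cultures or collection sessions they came from. The other astrocytes of the series were 5 cells of 14 days and 3 of 7 days. Their values stand beside a few results below.

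Astrocytes are glial cells that clear glutamate, buffer potassium, supply lactate and lipids to neurons and are joined by gap junctions. In primary culture they keep dividing for a time, flatten on the dish and take on parts of a reactive state, with contractile and matrix genes expressed. They also answer interferon, through STAT and IRF transcription factors, by turning on antiviral genes and the antigen-presenting class I molecules.

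The libraries of the 8 cells of 15 days held between 7603409 and 22242797 counts, with a median of 11059154.5, and those of 12 days held between 1089796 and 31668048, with a median of 15205664.5. To compare detection at 1 depth, every cell was thinned at random to 1000000 counts, and a gene with at least 5 counts there was called detected. The 8 cells then had 7291, 3671, 7208, 2388, 6848, 2877, 8867 and 3907 genes detected in the order of their numbers, 1 to 8, which carry no order of their own. Cells 1, 3, 5 and 7 lay above the upper quartile of the 12-day cells and cells 2, 4, 6 and 8 much lower, with no 15-day cell in the gap where 37 of the 70 12-day cells lay. Over the 12-day cells the lowest was 1311, the median 4901.5 and the highest 8935. The medians of the ages, 5377.5 and 4901.5, differed by 476 genes, and the difference ran from -994.5 to 1946.5 when each 15-day cell was left out in turn. It was smaller than the spread between the 8 cells (SD 2438).

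**Figure D1:**
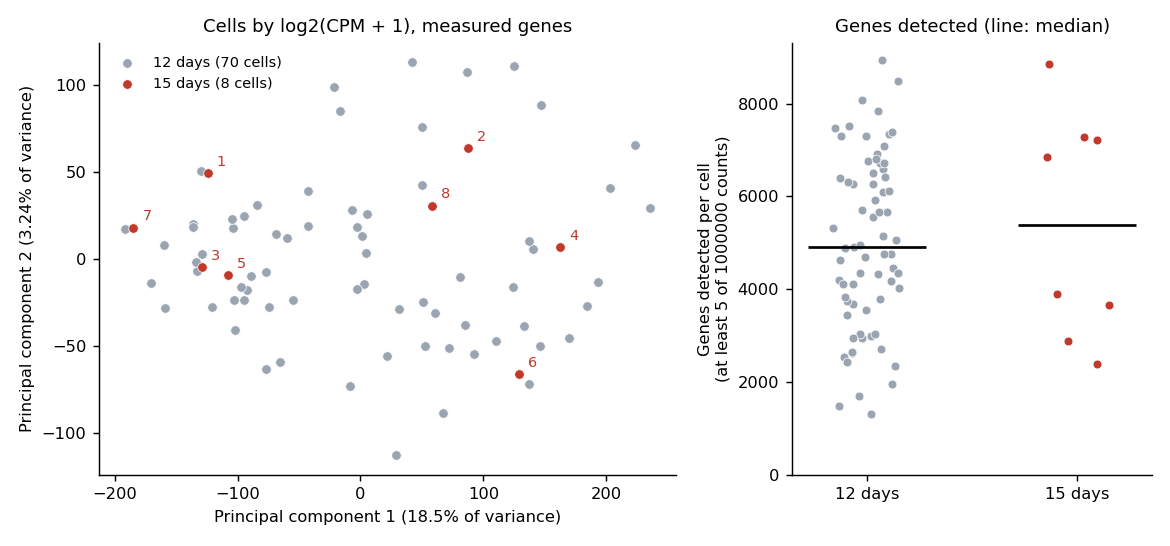
Left, each point is a cell on the first 2 principal components of log2(CPM + 1) over all measured genes (axes in component units, share of variance in the labels), with 15-day cells numbered. Right, genes detected per cell by age, with the median as a line. The 15-day cells lie within the range of the 12-day cells on both axes and split into 4 gene-rich and 4 gene-poor cells.

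Across all measured genes the 15-day cells did not form a group of their own. The correlation of log2 levels between 2 cells had a median of 0.487 over the 28 pairs within 15 days, 0.530 over the 2415 pairs within 12 days and 0.502 over the 560 pairs between the ages. For 2 of the 8 cells the most similar cell in the whole set was another 15-day cell. The main axis of variation, with 18.5% of the variance, followed the number of genes detected (r = -0.993 over the 78 cells) and the second axis held 3.24%. On both axes the range of the 15-day cells lay inside that of the 12-day cells.

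More of 20 astrocyte markers than of 20 neuron markers were detected in 8 of 8 cells of 15 days and 70 of 70 of 12 days. This count sets the label astrocyte against neurons alone and not against other cell types. Between 7 and 19 astrocyte markers were detected per 15-day cell (median 13.5) and between 3 and 19 per 12-day cell (median 13). Cell 6 stood apart from the rest. It had the fewest astrocyte markers, 7, and all 10 microglia markers, which together reached 11754.5 counts per 1000000 counts of the cell (CPM), against 1.72 to 619.7 CPM in the other 7 cells and 0 to 3579.9 CPM at 12 days. The chemokine receptor Cx3cr1 and the microglial calcium-binding protein gene Aif1 gave 4197 and 2071 CPM of this sum. Cell 7 had 7 of the 10 markers at a low sum of 239 CPM, and 3 of the 70 12-day cells had at least 5. For the lists and genes below that drew most on cell 6, the value without it is given beside them.

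The level of an age is the sum of a gene's counts over its cells, per 1000000 summed counts. Of 21956 genes in the table, 16569 were called measured, with 10 or more counts over both ages and a count in 3 or more cells. A level at least 2-fold higher at 15 days, on the scale log2(CPM + 1), was seen for 2095 genes, 12.6% of those measured, and a level at least 2-fold lower for 3239 genes, 19.5%. The median log2 ratio was -0.08. The split between higher and lower genes depended on how cells were combined. By the mean of the cells' log2(CPM + 1), 1875 genes were at least 2-fold higher and 792 lower. This mean gives each cell the same weight and also limits the pull of very high values, and the part of each was not separated here. Most of the higher genes drew chiefly on 1 cell: in 1683 of them, 80.3%, more than 50% of all 15-day counts came from 1 cell. Of the higher genes 310 kept the 2-fold difference whichever 15-day cell was left out. Of the lower genes 2724 kept it, but lower genes draw on the 12-day cells. Of all 3239 lower genes 953, 29.4%, had more than 50% of all 12-day counts from 1 cell. The same shares over all measured genes are not given here, so that neither share is read as particular to the higher or lower genes. With each of the 70 12-day cells left out in turn, 1733 of the 3239 lower and 2029 of the 2095 higher genes kept the difference. By detection there was no such tilt, with 7172 genes found in a larger share of 15-day cells and 7076 in a larger share of 12-day cells.

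The position of the 8 cells within the 12-day distribution was a stricter description. Of the 16569 measured genes, all 8 cells lay above the 12-day median for 46 and below it for 11. The numbers to be met without a difference between the ages were not worked out. Both counts are therefore not read as a result of age. For Yipf3, which encodes a membrane protein of the Golgi apparatus, all 8 lay above the upper quartile, the only such gene, and no gene had all 8 below the lower quartile.

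Genes were named when they had at least 10 CPM in an age, a 2-fold difference in the sums, in the mean of the cells and with each 15-day cell left out, and a difference in detection of the same sign. Of the 16569 measured genes, 268 at a higher and 1130 at a lower level met these criteria. The criteria left out 15-day cells but no 12-day cell, a step passed by 310 of 2095 higher and 2724 of 3239 lower genes. The larger number of lower genes is therefore not read as a result. Leaving out predicted genes, the 15 of each sign whose detection differed most are described here. The selection picks extremes of these same cells, so that the values are a description.

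Yipf3 (chr17:46248080-46252537 in GRCm38.p6) was the most even of the higher genes. Its level was 52.8, 35.9, 35.6, 30.7, 30.02, 40.1, 22.1 and 34.2 CPM in cells 1 to 8. No 15-day cell was low, while 13 of the 12-day cells had no count. Over the 12-day cells the median was 4.90 CPM and the highest 77.0 CPM. The summed level was 33.5 CPM (95% counting interval 32.4 to 34.7) at 15 days and 11.6 CPM (11.4 to 11.8) at 12 days, a 2.89-fold difference. It was detected in 8 of 8 and 36 of 70 cells. Anapc2 (chr2:25272466-25285916), the cullin subunit of the anaphase-promoting complex that drives exit from mitosis, was also detected in 8 of 8 cells, against 38 of 70. Its lowest, median and highest 15-day values were 4.68, 35.5 and 178 CPM, against 0, 7.88 and 132 CPM at 12 days, and the sums of 58.2 and 19.9 CPM differed 2.92-fold. The 2 ages overlapped widely in it.

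Larger folds went with fewer cells. Cd34 (chr1:194938821-194961292), a surface sialomucin best known from blood progenitors and endothelium, was at 175, 0, 103.5, 742, 0.08, 45.6, 27.2 and 0 CPM in cells 1 to 8. It was detected in 5 of 8 cells (95% interval 24.5% to 91.5%) and in 7 of 70 (4.12% to 19.5%), with summed levels of 129.7 and 9.91 CPM, a 13.1-fold difference. Cell 4 gave 64.8% of its 15-day counts, and without that cell the log2 ratio was 2.27 in place of 3.58. The highest 12-day cell had 198 CPM and 55 of the 70 had no count. Endothelial markers, of which 4 of 7 measured had no count at 15 days, summed to 0 to 26.6 CPM per 15-day cell, the highest in cell 7. Their relation to Cd34 was not tested. Ldb1, the cofactor that joins LIM-domain transcription factors, was detected in 7 of 8 and 13 of 70 cells. Its sums were 36.3 and 3.04 CPM, and 75.2% of the 15-day counts came from cell 2, which had 313 CPM beside a 15-day median of 7.71 CPM. Its log2 ratio of 3.21 was 1.43 without that cell. The huntingtin-associated transport protein gene Hap1 (5 of 8 and 10 of 70 cells, 52.6 and 2.32 CPM) likewise had 72.4% of its 15-day counts from cell 5. The cofactor gene Ncoa7 (6 of 8 and 18 of 70 cells, 134 and 12.2 CPM) had 64.3% from cell 2. Without these cells their log2 ratios went from 4.02 to 2.42 and from 3.35 to 2.01.

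The other higher genes had varied roles. Cul7, a scaffold of a cullin ubiquitin ligase, was detected in 6 of 8 and 20 of 70 cells at 170.2 and 14.1 CPM. Cell 4 gave 64.6% of the 15-day counts, and without that cell the log2 ratio was 2.19 in place of 3.50. Ube2t, the ubiquitin-conjugating enzyme of the Fanconi pathway of DNA repair, was detected in 5 of 8 and 12 of 70 cells at 71.4 and 18.7 CPM. Man2b1, the lysosomal alpha-mannosidase, was detected in 7 of 8 and 28 of 70 cells at 48.5 and 9.02 CPM. Cell 6, the one with all microglia markers, gave 58.98% of its 15-day counts. Without that cell the level was 22.3 CPM and the log2 ratio 1.21 in place of 2.30. The mitochondrial import channel subunit Timm50 (17.1 and 4.64 CPM) and the complex I assembly factor Timmdc1 (28.2 and 5.07 CPM) were each detected in 5 of 8 cells, against 10 and 12 of 70. The remaining higher genes were Spata1, Cercam, Trim34a and Zfp951, detected in 4 to 6 of the 8 cells and 3 to 15 of the 70. Leaving out cell 6 took Spata1 from a log2 ratio of 3.03 to 2.39, leaving out cell 4 took Trim34a from 2.94 to 2.21, and leaving out cell 1 took Zfp951 from 2.08 to 1.02. For 7 of the 15 higher genes the highest value of all was still in a 12-day cell.

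**Figure D2:**
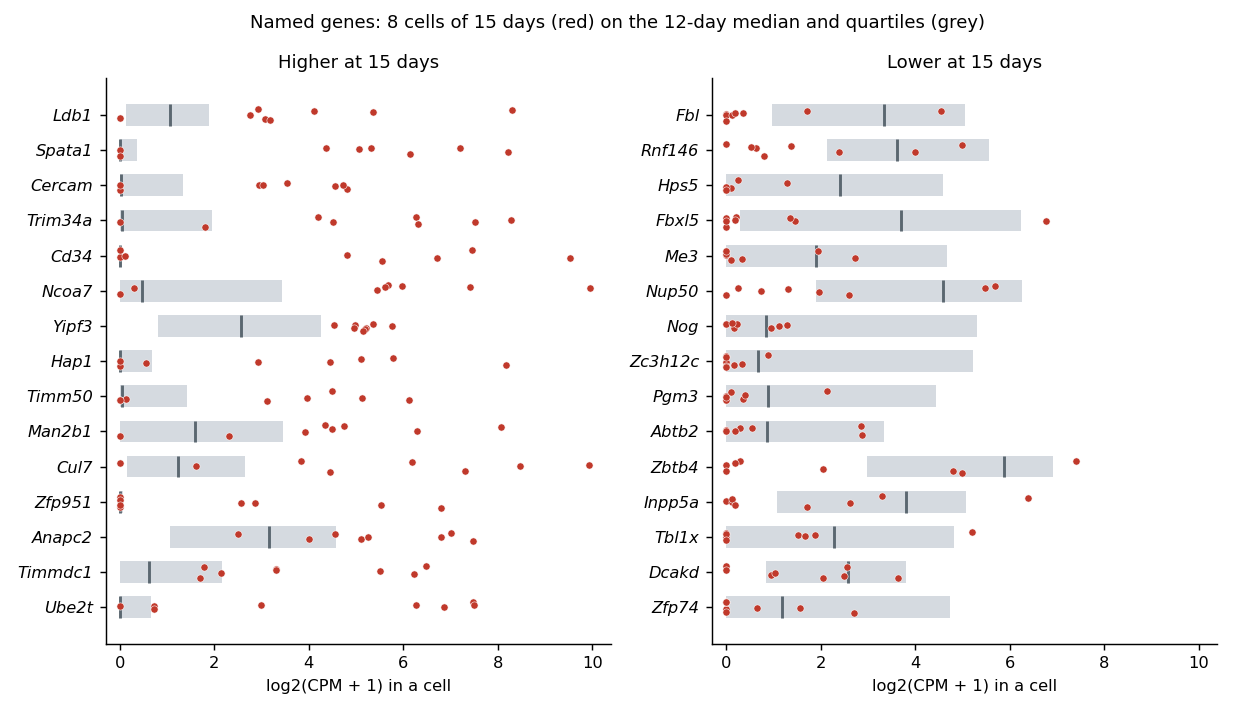
Each red point is a 15-day cell, and the grey marks are the 12-day median and quartiles, on an axis of log2(CPM + 1) per cell, for the 15 genes named as higher (left) and the 15 named as lower (right). Yipf3 has all 8 points above the grey range, while most lower genes have their points at or near 0.

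The lower genes were chiefly ones that the 8 cells did not show. Of the 15, 7 were detected in 0 of 8 cells, and 4 in 1 of 8. Not detected means fewer than 5 counts after thinning, and 0 of 8 allows a share of up to 36.9% of cells with the gene detected, from counting error over these 8 cells alone. Nog (chr11:89300638-89302559) encodes noggin, a secreted protein that binds bone morphogenetic proteins and keeps them from their receptors. Its 15-day values ran from 0 through a median of 0.15 to 1.43 CPM, while 29 of the 70 12-day cells had it detected and the highest reached 1384 CPM. The sums were 0.57 and 70.1 CPM. As 28 of the 12-day cells also had no count and their median was 0.80 CPM, Nog was detected in a minority of 12-day cells and in 0 of the 8, of which 2 had no count of it at all.

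4 further genes of other roles followed the same pattern of 0 of 8. Hps5, a subunit of a complex that forms lysosome-related organelles, had 0.36 and 36.9 CPM and was detected in 33 of 70 12-day cells. Zc3h12c, of the regnase family of RNA-cleaving zinc-finger proteins, had 0.23 and 52.03 CPM and 28 of 70. Pgm3, an enzyme in the synthesis of UDP-N-acetylglucosamine, had 0.84 and 28.9 CPM and also 28 of 70. Me3, the mitochondrial NADP-dependent malic enzyme, had 1.29 and 23.4 CPM and 31 of 70. Abtb2 (2.43 and 32.7 CPM) and the zinc-finger gene Zfp74 (1.57 and 63.3 CPM) completed the set, with 28 and 27 of 70.

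Several lower genes were common among 12-day cells. Zbtb4, a repressor that binds methylated DNA, was detected in 54 of 70 12-day cells and in 3 of 8 of 15 days, with sums of 29.3 and 81.0 CPM. Its 15-day values were 168, 0.23, 30.9, 0, 3.15, 0, 26.8 and 0.13 CPM in cells 1 to 8, so that the gene-rich cells carried it. Rnf146, a ubiquitin ligase that recognises poly-ADP-ribosylated proteins, was detected in 51 of 70 and 2 of 8 cells (44.7 and 9.15 CPM). Nup50, a nuclear pore component, was detected in 48 of 70 and 2 of 8 (92.8 and 18.6 CPM). Fbl, the nucleolar methyltransferase fibrillarin, was detected in 43 of 70 and 1 of 8 (28.9 and 5.401 CPM). Fbxl5, the iron-sensing F-box protein that controls iron regulatory protein turnover, was detected in 41 of 70 and 1 of 8 (88.6 and 24.4 CPM). In Fbl and Fbxl5 the lone cell was cell 7, the deepest and richest in genes, which gave 92.6% and 98.1% of the 15-day counts. Inpp5a, Tbl1x and Dcakd were detected in 36 to 45 of the 70 12-day cells and in 1 or 2 of the 8. The log2 ratios of 10 of the 15 lower genes moved by more than 1.5-fold, each further from 0, when 1 of the 8 cells was left out. That cell was the one with the largest effect and held most of the gene's 15-day counts, so that the direction was fixed in advance. Values without the highest 12-day cell are not given for these genes. Of all 3239 lower genes, 1733 kept 2-fold with each 12-day cell left out. Without cell 7 they went from -2.17 to -3.51 in Rnf146, -2.26 to -2.91 in Nup50, -2.23 to -4.30 in Fbl, -1.82 to -5.81 in Fbxl5, -4.02 to -4.74 in Pgm3, -1.39 to -2.08 in Dcakd and -4.64 to -5.47 in Zfp74. Zbtb4 went from -1.44 to -2.60 and Tbl1x from -2.70 to -4.10 without cell 1, and Inpp5a from -1.74 to -3.73 without cell 5. For 15 of the 15 lower genes the highest value was in a 12-day cell.

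Reads were counted per gene without a stated strand setting, and several named genes overlap another gene in the annotation on the other strand. Among these are Ldb1 with Pprc1, Spata1 with Ctbs, Cd34 with Gm16897, Fbxl5 with Bst1, Rnf146 with Echdc1 and Dcakd with Nmt1, while Ncoa7 overlaps Hint3 on the same strand. Trim34a and Zfp951 have close relatives in their families. The division of reads within these pairs and families is uncertain.

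Of 46 gene lists for cell types and pathways, 45 had a measured member, and each was described by its median log2 ratio beside the -0.08 of all measured genes. In 9 lists this median differed from that of all genes by at least 0.5, the size used to call a list apart. At a higher level at 15 days were microglia markers, A1 reactive astrocyte genes, ependymal markers and interferon response genes. Lists at a lower level were pericyte and smooth muscle markers, mitochondrial DNA replication and transcription genes, oligodendrocyte precursor markers, immediate early genes, and actin and contractile genes. Against the background of 12.6% higher and 19.5% lower, no list had all its members beyond 2-fold in 1 direction. These lists changed with how cells were combined. By the mean of the cells' log2 values, where the median of all genes was -0.0037, 10 lists were apart, all 10 at a higher level, and 3 of the 9 were among them: microglia markers (median 1.32), A1 reactive genes (0.76) and interferon response genes (0.86). The other 7 were mitosis, DNA replication, unfolded protein response, lysosome and autophagy, fatty acid and lipid transport, FGF, EGF and PDGF pathway, and collagen and matrix genes. None of the 5 lists at a lower level in the sums was apart in this way.

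**Figure D3:**
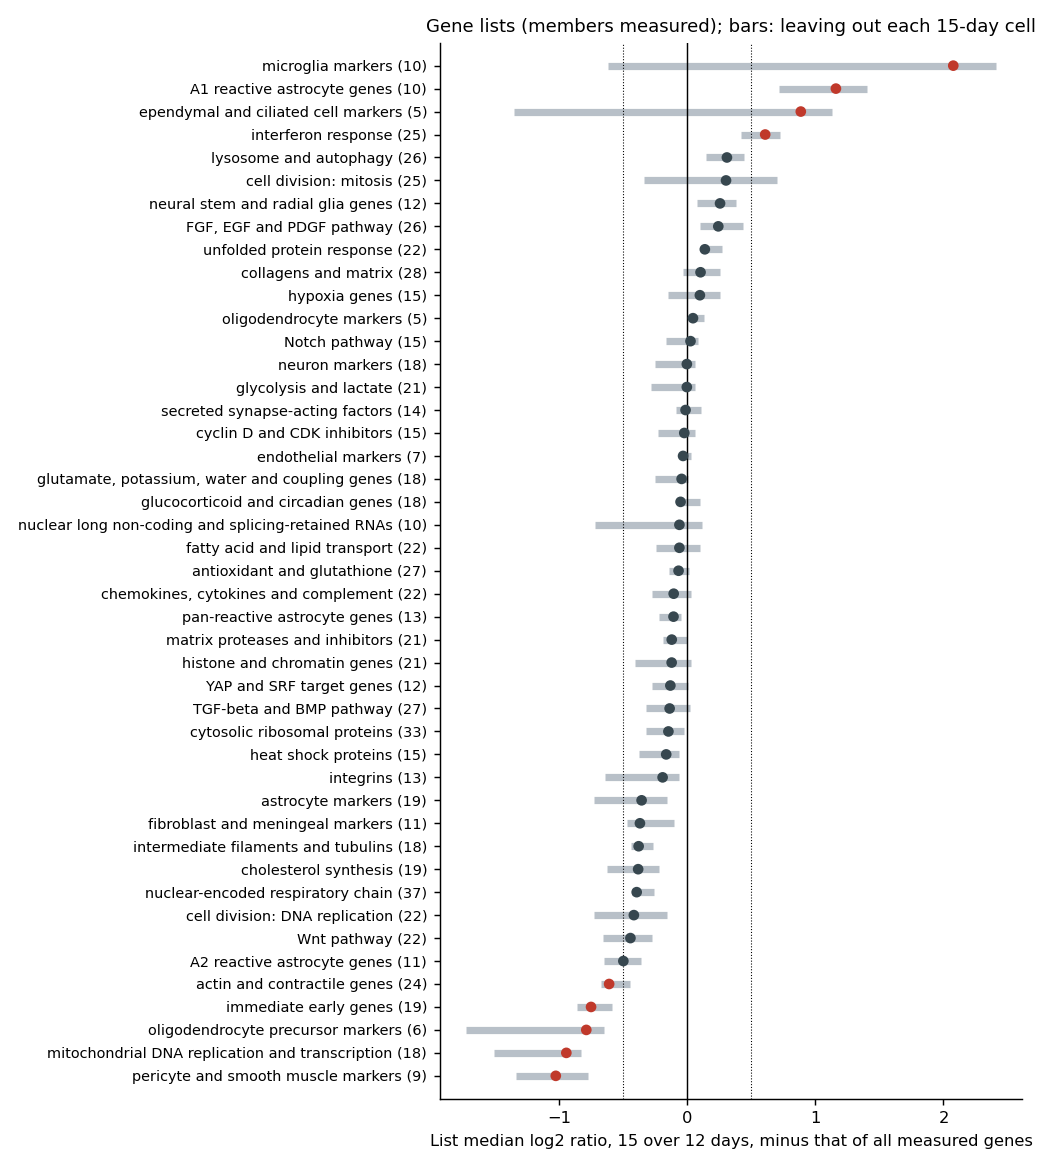
For each list (number of measured members in brackets) the point is its median log2 ratio, 15 over 12 days, minus that of all measured genes, and the bar spans the values obtained when each 15-day cell is left out. Red points lie beyond 0.5 in size (dotted lines). The bars of the microglia and ependymal lists cross 0, while those of the interferon and A1 lists stay above 0.

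Interferon response genes were at a higher summed level than the 12-day median in all 8 cells. Of 25 measured members 8 were at least 2-fold higher and 4 at least 2-fold lower and the median log2 ratio was 0.53. Most members given with both levels below were higher at 15 days, and they do not stand for the 4 lower ones. The summed level of the list was 1719, 2006, 958, 1819, 1805, 1930, 1551 and 1259 CPM in cells 1 to 8. All 8 cells lay above the 12-day median of 763 CPM and 6 lay above the 12-day upper quartile, although 12-day cells ranged from 20.4 to 2797 CPM and 10 of 70 exceeded the 15-day median of 1762 CPM. A large part of this sum was B2m, the invariant chain of class I molecules, with 802 and 497 CPM and 8 of 8 and 65 of 70 cells. Without B2m the sum ran from 30.1 through a median of 829 to 1580.5 CPM at 15 days, and 6 of 8 cells lay above the 12-day median of 301.4 CPM.

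By detection the list was more uniform than by level. Over all 16569 measured genes, 7172 were found in a larger share of 15-day cells and 7076 in a larger share of 12-day cells. In the list, 23 of the 25 genes were detected in a larger share of 15-day cells. Ifit2 was the single member with a larger share at 12 days, as Mx2 was detected in no cell of either age. The largest differences were in Psmb8, a subunit of the immunoproteasome, detected in 5 of 8 and 16 of 70 cells (58.1 and 7.17 CPM), and in Irf9, the DNA-binding part of the interferon-activated complex, detected in 5 of 8 and 21 of 70. The 2 genes differed in level, as Irf9 had 19.6 CPM at 15 days and 27.3 CPM at 12 days. The class I heavy chain H2-D1 had 229.7 and 29.5 CPM and came mainly from cells 2 and 6, at 1399.8 and 907 CPM, and without cell 6 its level was 149 CPM. Tap1, the transporter that loads peptides on class I molecules, was at 73.7, 71.0, 17.5, 120, 120, 0, 30.4 and 0.79 CPM, detected in 6 of 8 and 31 of 70 cells, with sums of 53.3 and 17.4 CPM. Stat2, a transcription factor of the interferon pathway, was at 149, 126 and 127 CPM in cells 1, 5 and 7 and at or below 0.46 CPM in the other 5 cells.

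The number of interferon genes detected moved with the number of all genes detected, and its part in the result was not tested. Over the 12-day cells the 2 numbers had r = 0.80 (70 cells, which share the depth they were thinned to). In the 4 gene-rich 15-day cells 12 to 21 of the 25 were detected, with a median of 15.5, and in the 12 12-day cells with as many genes detected 8 to 16, with a median of 10.5. The 4 gene-poor cells of 15 days had 2 to 7 interferon genes. The ranges of the gene-rich cells overlapped, with 21 in cell 7 above all 12-day cells. Microglial RNA was present in cell 6, and without the cells of either age that had at least 5 microglia markers the list's median was 0.56 above that of all genes, against 0.61 with them. The difference was below the 0.5 used to call a list apart without cell 7 (0.42), without the deepest cell of each age (0.41), with the 14-day cells joined (0.31), with a pseudocount of 5 CPM (0.19), with no filter on low counts (0.46) and with at least 10 CPM in an age (0.43), always with the same sign.

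The response is read from DNA by sites with repeated GAAA elements, and the promoters of 4 list members are shown to place such a site. The motif searched was GAAANNGAAA on either strand, in the 250 bases before the start of each gene in RefSeq (GRCm38.p6). It was present in 9 of the 22 measured list members with a promoter sequence, 40.9%, and in 3.13% of the 11538 measured genes with one. Isg15, Bst2, Rsad2, Gbp2 and Gbp3 also held it and are not shown. Each stretch of 60 bases is written 5′ to 3′ on the gene's strand, and capitals mark the motif or its reverse complement.
Ifit1: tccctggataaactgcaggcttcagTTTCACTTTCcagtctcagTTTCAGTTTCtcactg
Ifit3: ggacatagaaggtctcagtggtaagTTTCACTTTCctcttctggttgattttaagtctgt
Stat2: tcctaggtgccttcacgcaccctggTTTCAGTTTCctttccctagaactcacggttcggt
B2m: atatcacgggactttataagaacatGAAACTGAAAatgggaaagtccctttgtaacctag
The stretches lie at chr19:34640760-34640819 for Ifit1, chr19:34583348-34583407 for Ifit3, chr10:128270251-128270310 for Stat2 and chr2:122147523-122147582 for B2m, each on the plus strand. Ifit1 holds the motif 2 times in its stretch. Ifit1 and Ifit3, antiviral proteins that bind foreign RNA, had 21.6 and 52.8 CPM at 15 days against 6.77 and 22.7 CPM at 12 days. Ifit1 was detected in 3 of 8 and 5 of 70 cells and Ifit3 in 5 of 8 and 27 of 70. A match is a description of the letters and does not show that the site was used.

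**Figure D4:**
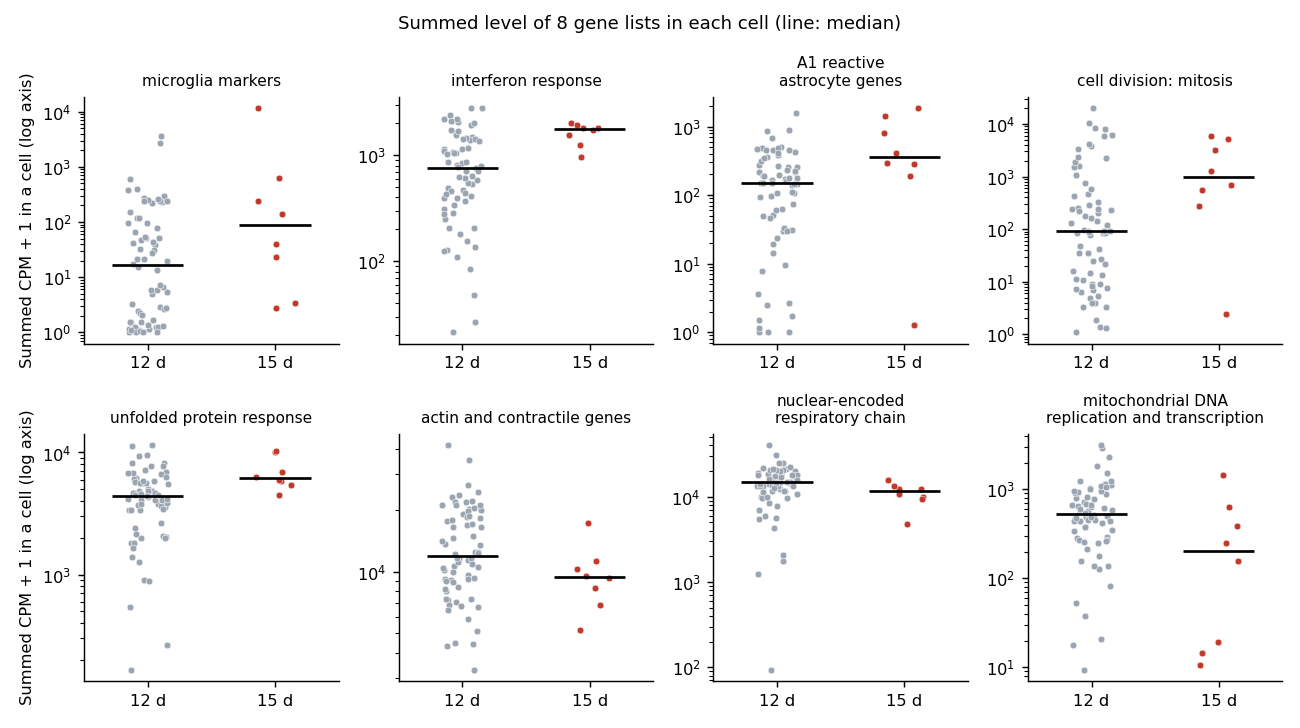
Each point is the summed CPM + 1 of a list in a cell (log axis) at 12 or 15 days, with the median as a line, for 8 lists. The 15-day cells lie above the 12-day median for the interferon response and unfolded protein response lists, and below it, but for 1 cell each, for the respiratory chain and contractile lists.

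A1 reactive astrocyte genes, a set known from astrocytes exposed to microglial cytokines, overlap the interferon list in H2-D1, Psmb8 and Gbp2. Of 10 measured members 5 were at least 2-fold higher and 1 lower, with a median log2 ratio of 1.09, or 0.94 without cell 6. Without the cells of either age with at least 5 microglia markers, which are cells 6 and 7 at 15 days, the list's median was 0.29 above that of all genes, under the 0.5 used to call a list apart. The summed level was 284, 1437, 189.8, 289.3, 816, 1870.2, 417 and 0.26 CPM in cells 1 to 8, against a 12-day median of 151 CPM and a highest 12-day value of 1570.0 CPM. Cell 8 was nearly devoid of these genes and the other 7 lay above the 12-day median. Outside the shared genes, the class I-like gene H2-T23 was detected in 4 of 8 and 17 of 70 cells (40.5 and 15.6 CPM). The proteoglycan gene Srgn (111 and 6.04 CPM) drew on cell 6 for its 943 CPM maximum, and without that cell its log2 ratio was 0.87 in place of 3.99. Serping1, an inhibitor of complement, was the lower member at 1.24 and 8.12 CPM. Of pan-reactive genes 1 of 13 was higher and 3 lower, and of A2 reactive genes 0 of 11 and 3, with medians of -0.18 and -0.57.

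Microglia markers were higher in the sums, 9 of 10 beyond 2-fold and P2ry12 at a lower level (8.68 and 46.7 CPM), and the list median of 2.00 rested on cell 6. Without this cell 0 of 10 were at least 2-fold higher and 2 lower, and the list median lay 0.62 below that of all genes. In cells 2 and 4 the list summed to 1.72 and 2.39 CPM with 0 markers detected, as in 28 of the 12-day cells.

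Cell division genes split the 8 cells. Of 25 genes of mitosis 18, 7, 23, 0, 22, 8, 19 and 1 were detected in cells 1 to 8, and the 4 gene-rich cells were the 4 with at least 16. Among 12-day cells 11 of 70 had at least 16, with a median of 3, and among the 12 gene-rich ones the number ran from 2 to 25 with a median of 8. Where 7172 of all 16569 measured genes were detected in a larger share of 15-day cells, every one of these 25 was. The largest difference was in Nusap1, a spindle protein, in 5 of 8 and 13 of 70 cells, followed by Kif23, a kinesin of the dividing cell's midbody, in 5 of 8 and 16 of 70. By summed level, 10 were at least 2-fold higher and 1 lower and the median log2 ratio of 0.23 was not apart from that of all genes, and it lay 0.34 below that of all genes without cell 5. By the mean of the cells' log2 values 20 of the 25 were at least 2-fold higher and 0 lower, with a median of 1.55. The centromere motor Cenpe, at 483 and 55.8 CPM, had 3716 CPM in cell 6 and a summed level of 97.6 CPM without that cell, whereas Kif23 was at 20.1 and 44.8 CPM. For Cdk1, the kinase that starts mitosis, the 15-day values were 155, 1.72, 440, 0.09, 318, 0.28, 32.7 and 0.26 CPM and a 12-day cell reached 8404 CPM. Of 22 DNA replication genes 19 were detected in a larger share of 15-day cells, while 2 were at least 2-fold higher and 6 lower by summed level, with a median log2 ratio of -0.49. By the mean of the cells' log2 values the direction was the other one, with 7 higher, 0 lower and a median of 0.80.

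**Figure D5:**
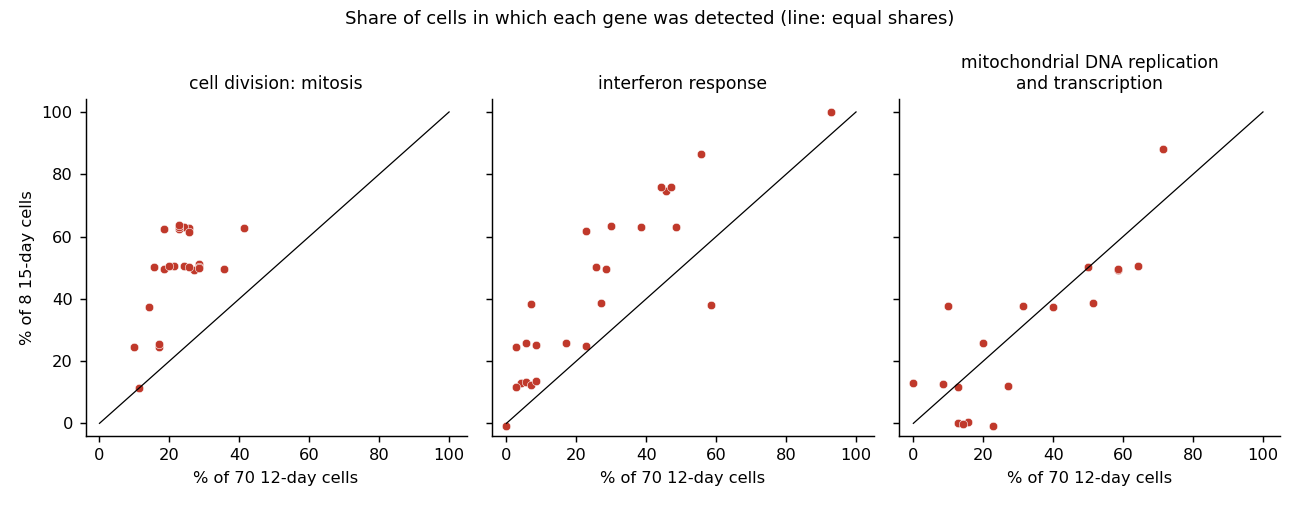
Each point is a gene, by the percentage of the 70 12-day cells (horizontal) and of the 8 15-day cells (vertical) in which it was detected, for 3 lists. Points are moved slightly so that they do not cover each other, and the line marks equal shares. Mitosis and interferon genes lie above the line but for Ifit2 below it and Mx2 on it, and the genes that copy and transcribe mitochondrial DNA lie on both sides.

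Besides the interferon list, the unfolded protein response list, on protein folding in the endoplasmic reticulum, was the only one of the 45 whose summed level lay above the 12-day median in 8 of 8 cells, and the lists of A1 reactive, mitosis, Notch pathway, and fatty acid and lipid transport genes did so in 7 of 8. Unfolded protein response genes summed to 4481 CPM in the lowest, 6151 in the median and 10302 in the highest 15-day cell, and all 8 lay above the 12-day median of 4383 CPM. As 32 of 70 12-day cells lay above the lowest 15-day cell, the ages overlapped. The chaperone gene Hspa5 gave the largest part, with 2014 and 962 CPM, and cells 2 and 4 had 5835 and 6199 CPM of it beside 17.3 CPM in cell 6. Pdia3, which forms disulphide bonds, had 326 and 97.3 CPM and was detected in 8 of 8 and 57 of 70 cells. Members went both ways, 5 of 22 at least 2-fold higher and 5 lower, with the stress factor gene Atf4 at 84.5 and 172 CPM, so that the median log2 ratio was 0.06. The mean of the cells' log2 values gave 8 higher and 1 lower, with a median of 0.73. Of 26 lysosome and autophagy genes 5 were at least 2-fold higher and 0 lower, with a median log2 ratio of 0.24, or 0.08 without cell 6 and -0.02 without the cells with at least 5 microglia markers. The mean of log2 values gave 10 higher and 1 lower, with a median of 0.70. Their summed level lay above the 12-day median of 5341 CPM in 6 of 8 cells, with 19698 CPM in cell 6 and 9460 CPM in cell 7, the next. Grn, the lysosomal protein progranulin, was detected in 8 of 8 and 60 of 70 cells at 395 and 158 CPM, and Sqstm1, the autophagy receptor p62, in 8 of 8 and 68 of 70 at 523 and 245 CPM.

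The genes that define an astrocyte had no common direction. Of 19 measured astrocyte markers 0 were at least 2-fold higher and 5 lower by summed level, with a median log2 ratio of -0.43. By the mean of the cells' log2 values 5 were higher and 2 lower, with a median of 0.21, and the summed level per 15-day cell was 2749.6 to 6294 CPM, above the 12-day median of 3797 CPM in 6 of 8. The intermediate filament gene Gfap was the lowest against 12 days, at 12.7 and 103.2 CPM, but it was detected in 3 of 8 and 32 of 70 cells, shares of 37.5% and 45.7%. Its values were 45.5, 1.38, 14.3, 0.44, 0, 0, 23.96 and 0.66 CPM, and the 12-day median was 2.16 CPM, so that the sums differed through the high 12-day cells, up to 962 CPM. The glutamate transporter gene Slc1a2 had 64.998 and 195 CPM and its partner Slc1a3 858 and 1157 CPM. Gja1, which encodes the gap junction protein connexin 43, had 129 and 316.2 CPM, and the water channel gene Aqp4 109 and 234.01 CPM. Apoe, the main lipid carrier of the brain, had 1061 and 596 CPM, with 3892 CPM in cell 6 and a summed level of 723 CPM without that cell. Cell 6 was among the 6 cells above the 12-day median of the marker sum, at 4363 CPM. Most of its sum was thus Apoe alone.

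Contractile genes were lower in most of the 8 cells. Their summed level was 5193 CPM in the lowest, 9394 in the median and 17315 in the highest 15-day cell, and 1 of 8, cell 1, lay above the 12-day median of 11956 CPM. Of 24 members 1 was at least 2-fold higher and 7 lower, with a median log2 ratio of -0.68. Acta2, smooth muscle actin, was detected in 8 of 8 and 69 of 70 cells and had 1085, 176, 451, 274, 764, 236.9, 417 and 102 CPM in cells 1 to 8, beside a 12-day median of 727 CPM. The sums were 460 and 1248 CPM. The myosin light chain gene Myl9 had 98.0 and 402 CPM, and Tagln2, of the transgelin family of actin-binding proteins, 6.37 and 50.3 CPM in 3 of 8 and 43 of 70 cells. Acta2 and Cnn1 are also in the pericyte and smooth muscle list, where 0 of 9 were at least 2-fold higher and 5 lower (median -1.10). Rgs5 and Des of that list were at 0.01 and 0 CPM at 15 days and at 0.05 and 1.99 CPM at 12 days. The list as a whole was not absent. It summed to 180 to 1163 CPM per 15-day cell, with 1 to 4 of the 9 members detected, and to 4.22 to 8677 CPM per 12-day cell.

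Among mitochondrial groups, the genes that copy and transcribe mitochondrial DNA had 3 of 18 at least 2-fold higher and 9 lower, with a median log2 ratio of -1.02. By the mean of the cells' log2 values 1 was higher and 2 lower, with a median of -0.35, and the list was not apart. Tfam, which packages mitochondrial DNA and starts its transcription, had 73.6, 0, 134, 0, 14.8, 0, 18.5 and 0.40 CPM and was thus at or near 0 in the 4 gene-poor cells. Its sums were 34.7 and 193 CPM, with 4 of 8 and 41 of 70 cells. The exonuclease gene Mgme1 and the elongation factor gene Tefm were detected in 0 of 8 cells and in 16 and 11 of 70. The polymerase gene Polrmt went the other way, in 3 of 8 and 7 of 70 cells (8.16 and 2.07 CPM). The number of members detected in the gene-rich cells was alike, 6 to 12 (median 9) at 15 days and 5 to 13 (median 10) at 12 days. For the 37 nuclear-encoded genes of the respiratory chain the summed level was 11614 CPM in the median 15-day cell and 14695 CPM in the median 12-day cell, and 1 of the 8 cells lay above the latter. Single genes differed little, 0 of 37 being at least 2-fold higher and 2 lower, Uqcrb and Cox7b. In the 4 gene-rich cells all 37 were detected.

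Immediate early genes and oligodendrocyte precursor markers were lower in the sums but not in most cells. Of 19 immediate early genes 0 were at least 2-fold higher and 6 lower (median -0.82), with Fosl2 at 50.5 and 199 CPM. Their summed level was 1442 CPM in the median 15-day cell and 1392 CPM in the median 12-day cell, 4 of 8 cells lying above the latter, and 1 12-day cell reached 20537 CPM. Of 6 precursor markers 0 were higher and 3 lower (median -0.86), yet the precursor transcription factor gene Olig1 was at 229 and 239 CPM. Of the 5 measured ependymal markers 2 were higher and 1 lower (median 0.81). The ciliary transcription factor gene Foxj1 was detected in 6 of 8 and 21 of 70 cells at 70.1 and 28.2 CPM, while without cell 7 the list median lay 1.35 below that of all genes.

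Titles of the 15-day cells carry numbers from J228 to J286, and 15 of the 12-day cells have numbers in the same range. What the numbers stand for is not stated. Against these 15 cells, 14 of the 15 higher and 15 of the 15 lower genes kept a difference of at least 2-fold, the exception being Anapc2 at a log2 ratio of 0.995. The genes were named from the same 15-day cells and from 12-day cells that include these 15, so that this is no independent check. The summed interferon level of these 12-day cells had a median of 715 CPM, below all 8 cells, and their median number of genes detected was 5656, against 5377.5 in the 15-day cells. The 5 cells of 14 days, compared with all 70 cells of 12 days, were at least 2-fold higher for 7 of the 15 higher genes, Yipf3 (35.9 CPM) and Anapc2 (58.99 CPM) among them. They were at least 2-fold lower for 2 of the 15 lower genes, and Nog was at 67.9 CPM in them. The shares of all measured genes that differed so at 14 days are not given, so that neither count can be set against them. Both comparisons also share the 12-day cells from which the genes were named, so that this is no independent check. The summed interferon level of the 14-day cells had a median of 753 CPM and a range of 628 to 1029.9 CPM, so that 7 of the 8 cells of 15 days lay above all of them.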

How the data were processed

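Single astrocytes labelled with 15 (8 cells) or 12 (70 cells) culture days were compared through the deposited count table, which holds whole-number counts of reads per gene for 21956 genes. Per the submitters' processing notes the authors aligned reads with STAR and counted them with HTSeq on mm10 (GRCm38), after basecalling with bcl2fastq2 2.17 per the labels. Which annotation, which program versions and which strand setting were used is not given in the sources used here. Amplification precedes counting, so that counts are not independent molecules, and the intervals given cover counting error only. The cells' totals of 1089796 to 31668048 counts make that error small beside the spread between cells.

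Counts were summed over the cells of an age and divided by the age's total (99986939 at 15 and 1014099456 at 12 days) to give CPM, with exact Poisson 95% intervals. Log2 ratios used a pseudocount of 1 CPM, which understates the ratio of low genes. For detection each cell was thinned without replacement (seed 7) to 1000000 counts, and genes with at least 5 counts were detected. Shares have Clopper-Pearson 95% intervals. Cells were compared by Pearson correlation of log2(CPM + 1), and no 2 libraries reached the 0.9 set for repeats of a cell (highest 0.884). Named genes follow the criteria stated with them, with ties in detection broken by log2 ratio. For each list the 2 members with the largest detection difference could be named, and any member of a list set apart or of the astrocyte markers. Members named beyond this, such as Cenpe, Cdk1, Hspa5 and Atf4, were chosen after their values were seen. Gene coordinates and promoters are from RefSeq (GRCm38.p6), where 30 of the 30 named genes matched. Of the genes on the 46 lists, 20 were not found in the table, the 15 encoded by mitochondrial DNA among the genes not analysed here. Where a list member set apart had no count in an age, setting it to a floor of 3 counts moved the list's median by 0.

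As no label names a replicate above the cell, each age is 1 sample and no test was made. Differences were described by their size, by leaving out each 15-day cell, and by the position of the 15-day cells among the 12-day cells. The alternatives were other weights of cells, edgeR 4.0.16 TMM factors and DESeq2 1.42.0 size factors, a pseudocount of 0.1 or 5 CPM, changed filters, detection rules and thinning depths, subsets of the 12-day cells by title, leaving out the deepest cells, and joining the 14-day cells. The members, lists and criteria were chosen with earlier results of these data known. The scripts, in Python 3.11.15 (numpy 2.4.6, pandas 2.3.3, scipy 1.17.1) and R 4.3.3, were tested on simulated data.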

Additional observations from a re-analysis of the deposited data

Results flagged for a closer look

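Values were looked at for a single 15-day cell far from the other 7, by the gap to its neighbour as a share of the whole range, on log2(CPM + 1). Of 42 sets of 8 values 8 passed Dixon's 95% limit for 8 values. Chance gives about 1 in 20, a rate that does not apply here, as 30 of the 42 sets were genes named for their values in these cells. In 5 of the 8, cell 7 was far above the rest in a gene named as lower: Fbl (gap ratio 0.624), Hps5 (0.8), Fbxl5 (0.783), Zc3h12c (0.622) and Pgm3 (0.809). Cell 7 had the most counts and the most genes detected. Its 3.37 CPM of Pgm3 and 1.44 CPM of Hps5 are still under the 12-day sums, whereas its 107.6 CPM of Fbxl5 is above the 88.6 CPM of the 12-day cells. Tbl1x, a subunit of a corepressor complex, was far higher in cell 1 than in the other cells (0.637), at 35.9 CPM.

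Low values were found in 2 lists. The summed level of the oligodendrocyte precursor markers was far lower in cell 6 than in the others (0.648), at 1.31 CPM against 74.4 to 499 CPM, in the cell with the highest microglia markers. The summed level of the A1 reactive genes was far lower in cell 8 (0.687), at 0.26 CPM against 189.8 to 1870.2 CPM.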

How the results depend on the processing

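No paired analysis was possible because each age is 1 sample without a label of animal or culture. The 2095 genes at least 2-fold higher ranged from 1933 to 2175 when each 15-day cell was left out, and the 3239 lower ones from 2995 to 4278. With each 12-day cell left out (added after the data were seen) they ranged from 2081 to 2135 and from 3210 to 3267. The lower count was 792 with the mean of the cells' log2 values, 1878 with a pseudocount of 5 CPM and 1982 with at least 10 CPM in an age. For the 30 named genes, 556 of 570 log2 ratios kept their direction and side of 2-fold, 13 kept the direction alone, and Dcakd turned to 0.091 with the 14-day cells joined. The naming criteria had already required 2-fold in the mean of the cells and with each 15-day cell left out. In those settings the outcome was fixed by the selection. All 360 differences in detection kept their direction, in genes picked for large differences in detection. With another random draw (seed 8, added after the data were seen) 10 of the 15 higher and 8 of the 15 lower genes would have been named again.

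Of 189 list medians relative to all genes, 149 stayed apart, 29 kept the direction alone and 11 turned. Immediate early genes came to 0.11 with the mean of the cells' log2 values and 0.050 with the 14-day cells joined, where the contractile list came to 0.041. Ependymal markers came to -0.13 against 12-day titles J228 to J286, -1.39 without the deepest cells, and -1.35 to 1.13 when each 15-day cell was left out. Microglia markers ranged from -0.62 to 2.41 in that way. Without the cells of both ages with at least 5 microglia markers (2 and 3 cells, added after the data were seen), microglia markers came to -0.32, ependymal markers to -1.09 and pericyte markers to 0.10. The cause was not tested, apart from cell 6, whose values are given with the microglia markers. A gene detected in 0 of 8 cells may still have counts in them.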

Other observations

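Other genes stood at the limits of detection among the 8 cells. At 35% or more of the 12-day cells and in 0 of the 8 cells of 15 days were 13 genes, among them, beside those named above, Csnk2b, the regulatory subunit of casein kinase 2 (41.4% of 12-day cells), Usp9x, an X-linked deubiquitinase (38.6%), Pigu, a subunit of the enzyme that attaches glycolipid anchors to proteins (38.6%), Rhot2, which couples mitochondria to motors (37.1%), Pds5a, a cohesin regulator (35.7%), and Pdcd7 (38.6%). In 8 of 8 cells and at most 60% of the 12-day cells were 9 genes. Of these Ero1l, the oxidase that recharges disulphide formation in the endoplasmic reticulum, was detected in 45.7% of 12-day cells, the lysosomal fucosidase Fuca2 in 47.1%, the Golgi and endosome GTPase Arfrp1 in 52.9%, Hsd17b11 in 55.7%, the semaphorin receptor Plxnb2 in 57.1%, Rbm7 in 58.6% and Tmem38a in 60%. These genes were picked for their values, which are given as a description.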
